A study of Mus musculus with 9 samples.

Results

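NF-κB is a family of dimeric transcription factors, and the 10 genes examined here encode its subunits and the proteins that restrain it. They were Nfkb1, Nfkb2, Rel, Rela and Relb (the 5 subunits), Nfkbia, Nfkbib, Nfkbie and Nfkbiz (IκB proteins) and Tnfaip3 (the enzyme A20). Each was found by its symbol in 1 row of both deposited tables, so that all 10 of 10 were measured, among 46072 genes in all. Unstimulated monocytes from the spleens of female C57BL/6 mice were examined by RNA sequencing, in 9 libraries. The 3 Con libraries came from animals gavaged over 6 days with water alone. The 3 Van libraries came from animals given vancomycin, an antibiotic that acts on gut bacteria, by the same route and for as long, at 2 mg per day, and for the 3 VanLip libraries this vancomycin was followed by L654, a bacterial lipid sensed through the receptor TLR2, by retro-orbital injection on days 7, 9 and 11. These injections fell within the rest without antibiotic that followed gavage in all 3 groups. The study's text on the sequenced mice names injections for VanLip only. Control mice of its other experiments were injected with PBS, and whether the sequenced Con and Van mice were is not stated. The rest lasted 6 to 8 days in the labels' general protocol, and monocytes for sequencing were collected after 8 days of it. The mice were 8 to 10 weeks old when obtained, per the study's methods, and the strain was the same in all groups. The study's methods give 3 mice per group for sequencing and also describe combining spleens of 1 cohort before monocyte isolation, so a library may hold cells of more than 1 mouse, and the spread between libraries is the spread between these samples.

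In a resting cell, dimers of the subunits are held in the cytoplasm by the classical IκB proteins IκBα (Nfkbia), IκBβ (Nfkbib) and IκBε (Nfkbie). Signals from Toll-like receptors activate the IκB kinase complex, IκB is phosphorylated and degraded, and the freed dimers enter the nucleus. Among the genes they switch on are Nfkbia and Tnfaip3, which shut the signal off again, and IκBζ (Nfkbiz), a nuclear member that helps to induce a second set of inflammatory genes. In monocytes and macrophages the pathway is best known for driving cytokines and chemokines after microbial contact.

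On GRCm38 the members lie on 8 chromosomes, with Nfkb2 and Rela on chromosome 19 and Relb and Nfkbib on chromosome 7. In GENCODE M21 coordinates Rel covers chr11:23736847-23770970 (minus strand) and Nfkbia covers chr12:55489410-55492647 (minus strand). All 10 are protein-coding, and the exons of 8 share no bases with another gene.

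The 250 bases upstream of the start of Nfkbia and of Rel are shown because these were the only members that passed the test in any contrast. Capitals mark the single match to a form of the κB motif (GGG, any 2 bases, then TTTCC), which in both genes lies on the strand opposite to the gene. The sequences are those of RefSeq on GRCm38.p6, read 5′ to 3′ on the gene's own strand, and cover chr12:55492648-55492897 (minus strand) for Nfkbia and chr11:23770970-23771219 (minus strand) for Rel.
Nfkbia: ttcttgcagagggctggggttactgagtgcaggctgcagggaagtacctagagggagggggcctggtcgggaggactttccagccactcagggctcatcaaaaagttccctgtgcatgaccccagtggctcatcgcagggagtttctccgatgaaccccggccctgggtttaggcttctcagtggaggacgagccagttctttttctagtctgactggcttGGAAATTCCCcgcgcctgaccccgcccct
Rel: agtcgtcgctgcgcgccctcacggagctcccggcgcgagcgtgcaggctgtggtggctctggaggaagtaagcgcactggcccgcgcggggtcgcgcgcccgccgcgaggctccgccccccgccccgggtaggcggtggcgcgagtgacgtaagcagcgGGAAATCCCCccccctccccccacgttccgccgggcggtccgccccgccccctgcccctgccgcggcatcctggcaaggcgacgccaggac
In Nfkbia the match ran from 29 to 20 bases upstream of the start, and in Rel from 91 to 82 bases upstream. RefSeq promoter windows of 300 bases (250 before and 50 after a start) were matched for 7 of the 10 members, and Nfkb1, Relb and Nfkbiz had none. The motif was present on either strand in 4 of these 7 genes (Nfkb2, Rel, Nfkbia and Tnfaip3), in 1.89% of the 27025 genes with a window and in 1.63% of all 32851 windows. The broader consensus decamer of the κB motif, whose letters overlap with it, was present in 5 of 7, with Nfkbie added, in 5.14% of genes and in 4.51% of windows. Neither motif was found in the windows of Rela or Nfkbib. These are letter matches and do not show that a factor binds there.

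In depth and in the size of 1 read the VanLip libraries stood apart from the others. The 6 libraries of Con and Van had total counts of 43070361 to 61383806, and those of VanLip 170503470 to 184720704. The commonest low count, taken as the size of 1 read, was 1.33 in the former and 2 in the latter. At 2 such reads per fragment, the totals give 16191865 to 23076619 fragments in Con and Van and 42625868 to 46180176 in VanLip. The raw totals thus overstate the difference in depth. Treatment with L654 and this difference between libraries cannot be told apart, and this limit touches every VanLip contrast given here. If the Con and Van mice had no injections, L654 also cannot be told apart from the injections and the handling they required. All 13 monocyte markers were detected, with summed FPKM (fragments per kilobase, scaled for library size) of 10710 to 12971 over the 9 libraries, most of it from Lyz2 (6428 to 9154). Erythroid markers, 7 genes, summed to 99.8 to 203 FPKM in Con, 343 to 773 in Van and 279 to 1164 in VanLip. B cell markers, 9 genes, summed to 337 to 395 FPKM in Con, 251 to 277 in Van and 258 to 321 in VanLip, almost all of it from Ighm, with Cd79b at 7.25 to 10.5 FPKM and Ms4a1 at no more than 0.40 FPKM. Red pulp macrophage markers, 6 genes, summed to 971 to 1157 FPKM in Con, 1098 to 1480 in Van and 1026 to 1182 in VanLip. Fewer cells of a type and less RNA per cell cannot be told apart in such bulk samples.

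All 10 genes were strongly expressed in these bulk monocyte samples, and the levels cannot be assigned to 1 cell type. In Con they ranked within the top 1.28% to 8.07% of the 26108 genes whose FPKM was above 0 in any library of any group. FPKM is a scale on which levels of different genes can be compared. Nfkbia stood highest at 183 ± 17.4 FPKM (SD, n = 3), and its libraries did not overlap with those of Nfkb1, next in order at 114 ± 3.20 FPKM. Tnfaip3 (98.2 ± 31.6), Rel (86.3 ± 8.80) and Nfkbiz (83.1 ± 5.79) followed, each overlapping with its neighbour, so their order was not resolved. Nfkb2 lay below them at 54.3 ± 5.64 FPKM and above Rela at 40.6 ± 3.00 FPKM, with no overlap on either side. Nfkbib (35.9 ± 5.31), Nfkbie (33.3 ± 4.17) and Relb (32.1 ± 3.22) closed the list and overlapped with each other. Per length, the transcript of Rela, which encodes the p65 subunit, was thus among the less abundant of the subunits, below Nfkb1, Rel and Nfkb2.

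Nfkbia and Nfkb1 had the highest mean levels in all 3 groups. In Van the order ran Nfkbia (193 FPKM), Nfkb1 (107), Tnfaip3 (106), Nfkbiz (102), Rel (64.9), Nfkb2 (61.0), Rela (42.0), Nfkbib (33.8), Relb (31.5) and Nfkbie (31.0), with no overlap between Nfkbia and Nfkb1, between Nfkb2 and Rela, or between Rela and Nfkbib. In VanLip the order ran Nfkbia (147 FPKM), Nfkb1 (124), Nfkbiz (85.8), Tnfaip3 (78.6), Rel (54.7), Nfkb2 (54.1), Rela (42.6), Relb (34.7), Nfkbib (33.3) and Nfkbie (27.7), and there Nfkbia overlapped with Nfkb1. Rel overlapped with Nfkbiz in Con and Van but lay below both Nfkbiz and Tnfaip3, with no overlap, in VanLip, where it overlapped with Nfkb2.

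**Figure D1:**
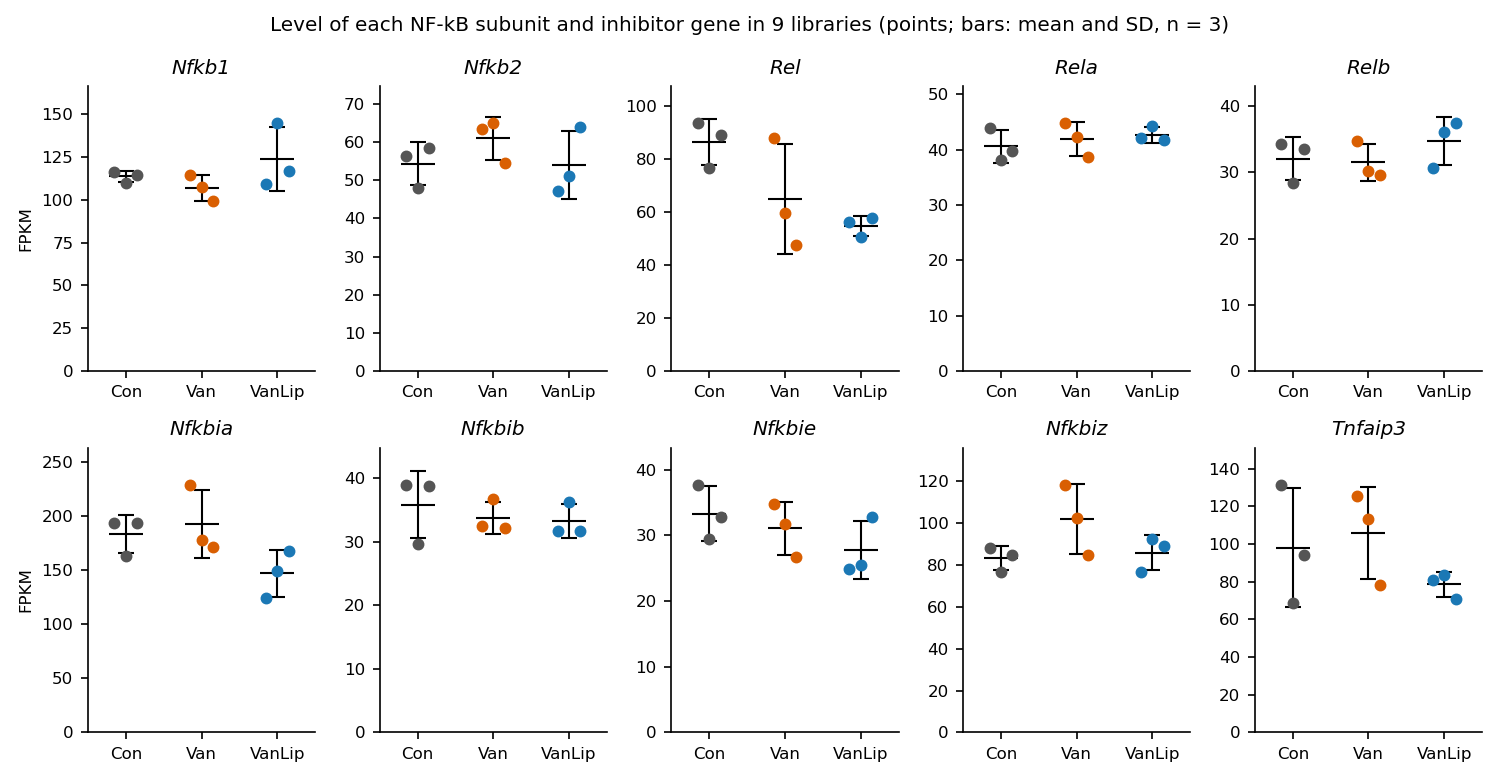
FPKM (y axis, from 0) of the 10 genes in the Con, Van and VanLip libraries, with points for libraries and bars for the mean and SD (n = 3). The 3 VanLip libraries of Rel, from 50.5 to 57.7 FPKM, sit below all 3 Con libraries, from 76.5 to 93.4 FPKM.

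Few of the 10 genes differed between groups: Rel was lower in VanLip than in Con, and Nfkbia was lower in VanLip than in Van. The levels of the other 8 did not pass the test in any contrast. A gene is called where its adjusted p was 0.05 or under. In Van against Con, 0 of 10 passed the DESeq2 test where 4.34% of the 18516 genes tested did (2.06% lower), 2 had an unadjusted p under 0.05 (Rel and Nfkbiz) where 11.1% of all genes did, and edgeR called 0 of 10 and 1.21% of all. In VanLip against Con, 1 of 10 passed (Rel, lower) beside 6.67% of all genes, or 3.69% counting lower calls alone, and in VanLip against Van 1 of 10 (Nfkbia, lower) beside 9.86%, or 5.28% counting lower calls alone. In these contrasts 3 and 2 members had an unadjusted p under 0.05, beside 13.0% and 15.5% of all genes, and edgeR called 0 and 0 members, beside 1.78% and 5.07%. Among the 3615 genes whose normalized count (count divided by the size factor of the library) averaged no less than that of the lowest member, the called shares were 8.02%, 9.52% and 15.3%. Members whose groups did not overlap numbered 0, 1 and 1, while 31.0%, 27.7% and 32.8% of genes at that level did not overlap in the same contrasts. A called share of 1 in 10 is near the 9.52% called at that level in VanLip against Con and below the 15.3% called in VanLip against Van. As a share without overlap, 1 in 10 is below the 27.7% and 32.8% of these contrasts. Nothing particular to the members is drawn from these counts.

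The median log2 fold change of the 10 genes was 0.026 in Van against Con, -0.027 in VanLip against Con and -0.17 in VanLip against Van, beside medians over all genes tested of -0.0065, 0.0085 and 0.011. Without 1 library the members' median ran between -0.10 and 0.11 in Van against Con (Con replicates 2 and 1 left out, respectively), between -0.13 and 0.032 in VanLip against Con (Con replicate 2 and VanLip replicate 1) and between -0.27 and -0.044 in VanLip against Van (VanLip replicate 3 and Van replicate 1). The sign of the median in both contrasts with Con thus rested on single libraries. In VanLip against Van 7 of the 10 values were below 0, all 4 IκB genes and Tnfaip3 among them, and 7 or 8 were below 0 under each other scaling and tool tried, and 6 to 8 without 1 library. In VanLip against Con 8 were below 0, but with TMM library sizes (the scaling of edgeR) 5 were, since several values lay next to 0, and 4 were without Con replicate 1, Con replicate 3 or VanLip replicate 1, against 9 without Con replicate 2. Van against Con had 6 above 0 and 4 below, but 2 above and 8 below without Con replicate 2 or Van replicate 1. The direction followed the library as well as the group: Van replicate 1 exceeded the Con mean in 9 of the 10 genes, Van replicate 3 was under it in 8, and VanLip replicate 1 was under it in 9.

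**Figure D2:**
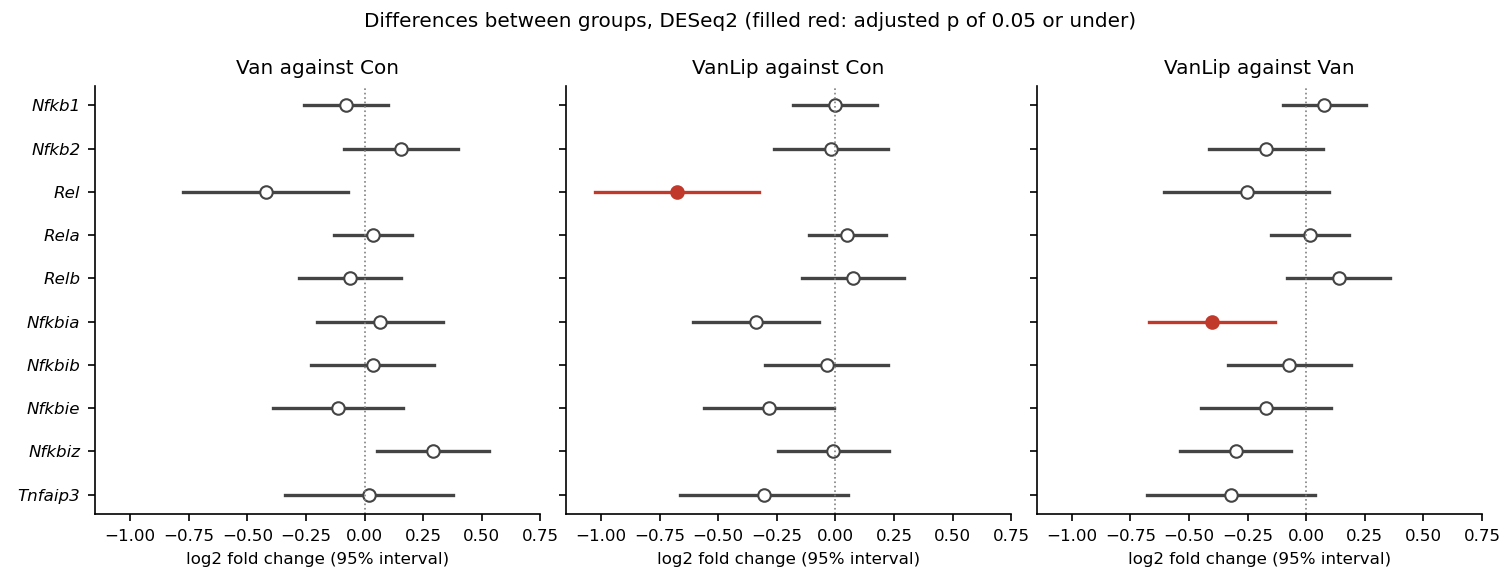
DESeq2 log2 fold changes (points) with 95% intervals (lines) of the 10 genes in the 3 contrasts, with filled red points for called genes. Only Rel in VanLip against Con, at -0.68, and Nfkbia in VanLip against Van, at -0.40, are filled.

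Among the subunits, Rel was the only gene whose level differed between groups by the test. Rel encodes c-Rel, a subunit with a transactivation domain that is prominent in lymphoid and myeloid cells. Its normalized counts were 67450, 55024 and 62745 for Con, 62995, 41417 and 33900 for Van and 40080, 35242 and 40676 for VanLip (replicates 1 to 3). Every VanLip library was below every Con library, whereas Van replicate 1 lay within the Con range and the other Van libraries below it. Rel was 0.626-fold in VanLip relative to Con (95% interval 0.491 to 0.799), a log2 fold change of -0.68 ± 0.18 (SE), with an adjusted p of 0.00585 (DESeq2 Wald test, Benjamini-Hochberg). For Van against Con the log2 fold change was -0.42 ± 0.18, with a DESeq2 adjusted p of 0.198, and for VanLip against Van it was -0.25 ± 0.18, with a DESeq2 adjusted p of 0.459, so no difference between the antibiotic groups with and without L654 was shown.

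The Rel call depended on single libraries and on the tool. Without Con replicate 1, VanLip replicate 1, VanLip replicate 2 or VanLip replicate 3 the DESeq2 adjusted p for VanLip against Con was 0.0663, 0.152, 0.295 and 0.115, with log2 fold changes of -0.61, -0.70, -0.61 and -0.71. It was 0.106 in edgeR's quasi-likelihood test, at a log2 fold change of -0.67, and 0.208, 0.223 and 0.104 with the 3 limma settings. These were the 4 losses among 9 alternatives. The alternatives that used DESeq2 kept the call, with a DESeq2 adjusted p as low as 1.79e-08. Van replicate 1 decided the Van contrasts: without it Rel was lower in Van than in Con (log2 fold change -0.71, DESeq2 adjusted p = 1.67e-06), and the VanLip against Van value turned from -0.25 to 0.039. B cells express Rel at high levels, and monocytes were isolated by negative selection against markers that include the B cell antigen CD45R. The B cell list had 1 of 9 markers lower in VanLip than in Con (11.1%, beside 6.67% of all genes) and 2 of 9 lower in Van than in Con (22.2%, beside 4.34%) by DESeq2, with the summed levels given above. Of 7 conventional dendritic cell markers, 2 were lower in VanLip than in Con and 2 lower in Van than in Con (28.6% each). The 7 summed to 49.1 to 63.5 FPKM in Con, 43.3 to 54.5 in Van and 38.8 to 58.5 in VanLip. Values were above 0 for 1 of the 7 in Van against Con and for 2 in VanLip against Con. In VanLip against Van 2 were called higher (28.6%, beside 9.86% of all genes). Single markers differed in direction. Clec9a stood at 2.23 to 3.03 FPKM in Con, 1.11 to 1.83 in Van and 1.99 to 2.74 in VanLip. Flt3 stood at 7.23 to 8.81 FPKM in Con, 9.11 to 10.3 in Van and 8.12 to 13.9 in VanLip. Erythroid markers were called higher by DESeq2 in 7 of 7 in VanLip against Con (median log2 fold change 2.495, 5 of them called by edgeR) and in 5 of 7 in Van against Con (median 1.82, 0 called by edgeR). Of 24 immediate early and heat shock genes, which respond to cell handling, 6 were lower and 0 higher in VanLip than in Con by DESeq2. That is 25.0%, beside 6.67% of all genes, and edgeR called 4. Of 9 neutrophil markers detected, 8 had values below 0 in that contrast, 1 had a value above 0 and 1 was called lower. They summed to no more than 14.1 FPKM in any library. The part of all these genes in the Rel values was not tested.

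The other subunits gave values close to each other in all groups. Rela, the p65 subunit, stood at 11556, 10000 and 10168 normalized counts for Con, 11703, 10749 and 10045 for Van and 10935, 11235 and 10692 for VanLip, and its 3 groups overlapped. Its DESeq2 log2 fold changes were 0.035, 0.051 and 0.016 for Van against Con, VanLip against Con and VanLip against Van, with 95% intervals of -0.13 to 0.20, -0.11 to 0.22 and -0.15 to 0.18. These intervals bound any change in Rela to well under that fitted for Rel in VanLip. Nfkb1, the precursor of p50, was at 37226, 35275 and 37369 normalized counts for Con, 36211, 34250 and 33418 for Van and 31757, 40307 and 37594 for VanLip, with the widest spread in VanLip. Nfkb2, the precursor of p52, and Relb, its partner in the non-canonical branch, had log2 fold changes between -0.17 and 0.15 in the 3 contrasts, with DESeq2 adjusted p from 0.475 to 0.968. Nfkb2 reached 18930 normalized counts in Van replicate 1 and was lowest, at 13982, in VanLip replicate 1. It was called lower in VanLip than in Van without VanLip replicate 3 (log2 fold change -0.31, DESeq2 adjusted p = 0.0380). Of the exon bases of Nfkb2, 830 of 4584 are shared with genes on the other strand, Psd among them, and although the library kit was stranded, whether counting used strand was not stated, so reads of the partners may be included.

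Expressed as shares of the summed FPKM of the 5 subunits, Rel made up 27.1%, 25.4% and 26.5% in Con, 25.4%, 19.5% and 17.6% in Van and 19.7%, 15.4% and 18.2% in VanLip. The VanLip shares were all below the Con shares. Nfkb1 made up 34.8 ± 1.51% in Con and 39.8 ± 3.99% in VanLip (SD, n = 3), with no overlap, and the shares must add to 100%. The summed subunit level itself overlapped between groups, at 327 ± 22.9 FPKM for Con, 306 ± 37.9 for Van and 310 ± 21.8 for VanLip (SD, n = 3). The ratio of Rela to Rel FPKM was 0.472 ± 0.0271 for Con, 0.680 ± 0.155 for Van and 0.783 ± 0.0820 for VanLip (SD, n = 3).

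**Figure D3:**
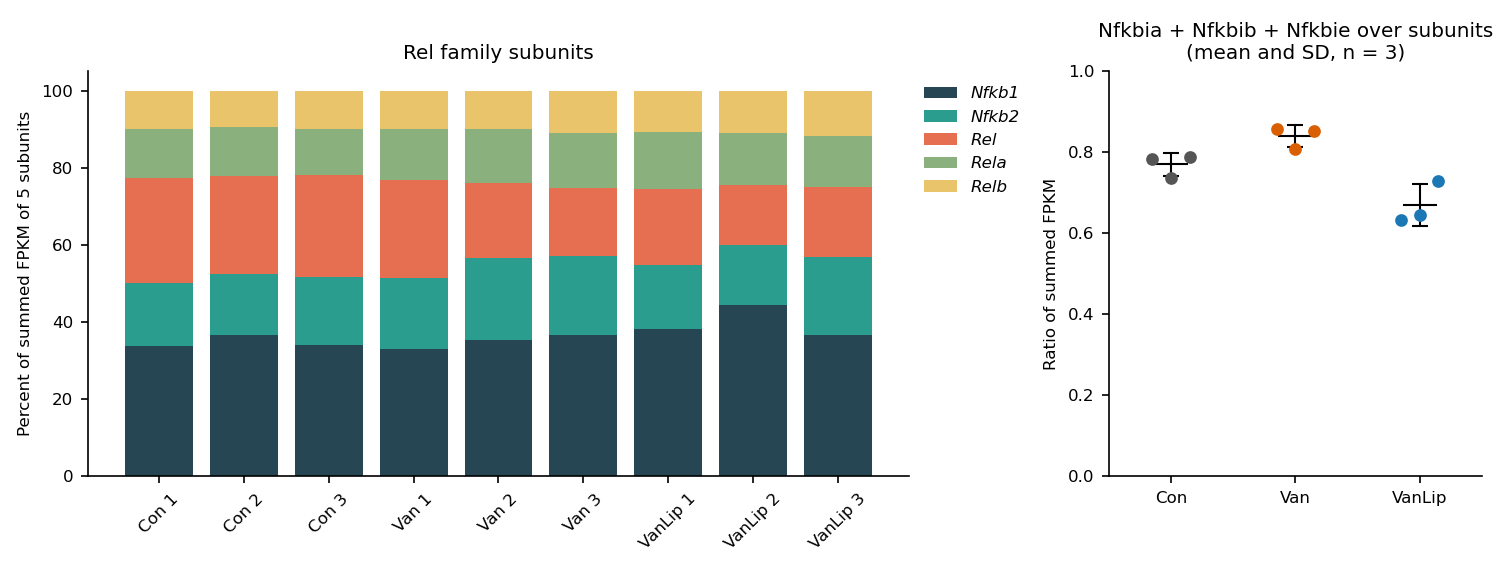
Left, percent of the summed FPKM of the 5 subunits in each library. Right, the summed FPKM of Nfkbia, Nfkbib and Nfkbie divided by that of the subunits, with points for libraries and bars for the mean and SD (n = 3): Van libraries lie highest, from 0.809 to 0.857, and VanLip libraries lowest, from 0.634 to 0.730.

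Of the IκB genes, Nfkbia was lower in VanLip than in Van. Nfkbia encodes IκBα, the inhibitor that is resynthesised most rapidly after activation. Its normalized counts were 29439, 24765 and 28745 for Con, 34708, 26231 and 25771 for Van and 18747, 22023 and 24903 for VanLip. Every VanLip library was below every Van library, and VanLip replicate 3 lay just above Con replicate 2. Relative to Van, Nfkbia was 0.757-fold in VanLip (95% interval 0.629 to 0.913), a log2 fold change of -0.40 ± 0.14 (SE) with a DESeq2 adjusted p of 0.0390. Relative to Con its log2 fold change was -0.34 ± 0.14, which had an unadjusted p of 0.0141 and did not pass after adjustment (DESeq2 adjusted p = 0.128), and Van against Con gave 0.064 ± 0.14 (DESeq2 adjusted p = 0.931).

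The Nfkbia call lay close to the threshold. It was lost without Con replicate 3 (DESeq2 adjusted p = 0.0573), Van replicate 1 (0.285), VanLip replicate 1 (0.166) or VanLip replicate 2 (0.0930), and the log2 fold change without Van replicate 1, the highest library, was -0.25. With the replicate number as a block the DESeq2 adjusted p was 0.0604, and edgeR's quasi-likelihood test gave 0.124. It was 0.0555 with TMM library sizes, 0.0643 with only the 2 groups in the fit and 0.297, 0.296 and 0.159 with the limma settings, so that 7 of 9 such alternatives lost the call, at log2 fold changes of -0.40 to -0.38. Against Con, Nfkbia was called lower in VanLip without Van replicate 1 (-0.34, DESeq2 adjusted p = 0.0463) or VanLip replicate 3 (-0.44, DESeq2 adjusted p = 0.0273). Immediate early and heat shock genes, which respond to cell handling, moved in the same contrast: of 24 such genes, 9 were lower and 1 higher in VanLip than in Van (DESeq2), with summed levels of 6696 to 7085 FPKM in Van and 5775 to 6716 FPKM in VanLip. Monocyte markers moved in it too: 3 of 13 were higher in VanLip than in Van (DESeq2, 23.1% beside 9.86% of all genes), and 1 of 13 was lower in Van than in Con. The fitted values of 9 were above 0 and of 4 below 0 in VanLip against Van. Among those called, Ccr2, a chemokine receptor of classical monocytes, stood at 159 to 173 FPKM in Con, 70.4 to 98.2 in Van and 156 to 256 in VanLip. Csf1r, the receptor for a monocyte growth factor, stood at 528 to 587, 541 to 643 and 548 to 574 FPKM in these groups, which overlapped. Of 6 red pulp macrophage markers, 5 had values below 0 in VanLip against Van and 1 was called lower (DESeq2), with summed levels of 1098 to 1480 FPKM in Van and 1026 to 1182 FPKM in VanLip. The part of these genes in the Nfkbia value was not tested.

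**Figure D4:**
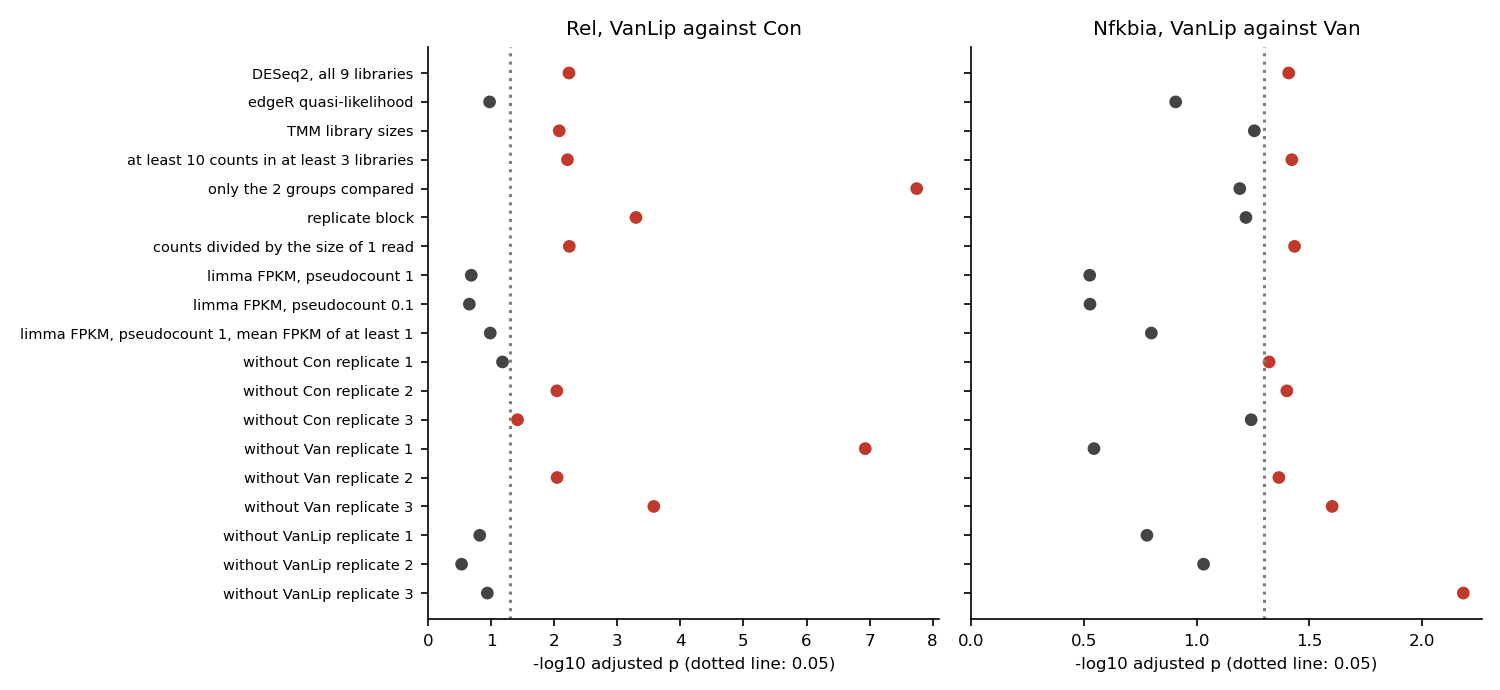
The -log10 of the adjusted p (x axis, dotted line at 0.05) of Rel in VanLip against Con and of Nfkbia in VanLip against Van, for the DESeq2 fit of 9 libraries and 18 alternatives (y axis), with called points in red. Of the 9 fits that leave out 1 library, 5 kept the Rel call and 5 kept the Nfkbia call.

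The other IκB genes did not pass the test in any contrast. Nfkbiz, the nuclear IκBζ, stood at 31604, 27268 and 30378 normalized counts for Con, 42805, 35662 and 30779 for Van and 26735, 31462 and 30458 for VanLip. Van replicates 1 and 2 were above all other libraries, and Van replicate 3 lay among them. Its log2 fold change was 0.29 ± 0.12 in Van against Con (unadjusted p = 0.0159, DESeq2 adjusted p = 0.179) and -0.30 ± 0.12 in VanLip against Van (unadjusted p = 0.0127, DESeq2 adjusted p = 0.0951). Without Van replicate 3, both contrasts were called, at 0.40 (DESeq2 adjusted p = 0.0258) and -0.41 (DESeq2 adjusted p = 0.00925). Nfkbie, which encodes IκBε, was at 8832, 6866 and 7486 normalized counts for Con, 8085, 7183 and 6171 for Van and 5770, 5767 and 7513 for VanLip. VanLip replicates 1 and 2 were the lowest of all, but VanLip replicate 3 fell inside the Con range, and VanLip against Con gave -0.28 ± 0.14 (unadjusted p = 0.0447, DESeq2 adjusted p = 0.252). Without VanLip replicate 3 this was -0.42 (DESeq2 adjusted p = 0.0260). Nfkbib, which encodes IκBβ, ranged from 3769 to 5276 normalized counts over the 9 libraries, with DESeq2 log2 fold changes of 0.034, -0.037 and -0.071 and adjusted p from 0.849 to 0.968. It shares 356 of its 2169 exon bases with Sirt2 and Ccer2 on the other strand.

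Set against the subunits, the cytoplasmic inhibitors Nfkbia, Nfkbib and Nfkbie together had a summed FPKM that was 0.783, 0.738 and 0.789 of that of the subunits in Con, 0.857, 0.809 and 0.853 in Van, and 0.634, 0.646 and 0.730 in VanLip. The 3 groups did not overlap in this ratio, with Van highest and VanLip lowest, but the gaps were small. They lay between 0.738 in Con and 0.730 in VanLip, and between 0.789 in Con and 0.809 in Van. Nfkbia made up 68.7% to 77.3% of the summed inhibitors over all libraries, and Rel is part of the divisor. The ratio is therefore not separate from the values of Nfkbia and Rel. How often sums of other genes separate the groups was not examined. The ratio was formed with the levels already known and is given without a test. The ratio of Nfkbia to Rela was 4.27 to 4.87 in Con, 4.20 to 5.11 in Van and 2.95 to 4.01 in VanLip, so that VanLip lay below both other groups. Transcript ratios are not protein ratios.

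Tnfaip3, which encodes the ubiquitin-editing enzyme A20, varied widely within groups. It was at 58558, 33417 and 41546 normalized counts for Con, 52629, 46154 and 36325 for Van and 38158, 38006 and 31967 for VanLip. Con alone spanned nearly the whole range, and all groups overlapped. Log2 fold changes were 0.017 ± 0.18 in Van against Con (DESeq2 adjusted p = 0.988), -0.30 ± 0.18 in VanLip against Con (DESeq2 adjusted p = 0.380) and -0.32 ± 0.18 in VanLip against Van (DESeq2 adjusted p = 0.314). The 95% interval of the last, -0.68 to 0.037, still allowed a decrease as large as that of Rel.

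Other genes of the pathway were examined through lists drawn up with earlier results of these data known, so the shares called in them are not independent of these data. Of 24 genes of the IκB kinase complex and its upstream signalling, the DESeq2 calls were 1 lower for Van against Con, 1 higher for VanLip against Con and 3 higher for VanLip against Van, and edgeR called 0, 0 and 2. These DESeq2 calls were 4.17%, 4.17% and 12.5% of the list, near the 4.34%, 6.67% and 9.86% of all genes tested, and the list medians were -0.085, -0.048 and 0.017. Ikbkg, the regulatory subunit NEMO of the kinase complex, had 3529 ± 165 normalized counts for Con, 2968 ± 109 for Van and 3478 ± 123 for VanLip (SD, n = 3). Van was below Con (log2 fold change -0.25, DESeq2 adjusted p = 0.0204) and VanLip above Van (0.23, DESeq2 adjusted p = 0.0196). Both calls were lost without Van replicate 2 or Van replicate 3, the first also without Con replicate 2 or Con replicate 3 and the second also without Van replicate 1, VanLip replicate 1 or VanLip replicate 3, at DESeq2 adjusted p from 0.0560 to 0.200. Ikbkg shares exon bases with G6pdx on the other strand.

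Tab1, an adaptor of the kinase TAK1, had 1215 ± 95.3 normalized counts for Con, 1148 ± 47.5 for Van and 1531 ± 56.3 for VanLip (SD, n = 3). All VanLip libraries were above those of both other groups. The log2 fold change was 0.41 against Van (DESeq2 adjusted p = 0.000336), called in all 9 fits that left out 1 library, and 0.33 against Con (DESeq2 adjusted p = 0.0110), a call that was lost without Con replicate 1, Con replicate 3, VanLip replicate 1 or VanLip replicate 2 (0.0732 to 0.124). Myd88, the adaptor through which TLR2 signals, was higher in VanLip than in Van (log2 fold change 0.28, DESeq2 adjusted p = 0.00627), and the call was lost without Van replicate 1 (0.0630) or Van replicate 2 (0.0618).

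Among partners and counterparts of A20, 11 of 12 listed genes were detected. Cyld, a deubiquitinase that restrains the pathway, was the only 1 of the 11 called by DESeq2 in any contrast, and edgeR called 0. It was lower in VanLip than in Con (log2 fold change -0.31, DESeq2 adjusted p = 0.00978), and without Con replicate 1, Con replicate 3 or VanLip replicate 2 it was not called (0.0767 to 0.0830). Of the 6 genes for IκB ubiquitination and the other IκB family genes, Bcl3 and Nfkbid, 0 were called by DESeq2 and 0 by edgeR in each contrast, while 1 of the 6 in each contrast, and 1 of the latter pair in VanLip against Van, had an unadjusted p under 0.05.

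Of 34 genes that NF-κB is known to induce, 33 had an adjusted p. In VanLip against Con 5 were lower and 0 higher by DESeq2, in VanLip against Van 4 lower and 1 higher, and in Van against Con 2 lower and 1 higher, with median log2 fold changes of -0.20, -0.12 and -0.047 in that order, beside 0.0085, 0.011 and -0.0065 over all genes tested. The calls were 15.2%, 15.2% and 9.09% of the list, against 6.67%, 9.86% and 4.34% of all genes tested, and nothing particular to the list is drawn from these counts. EdgeR called 0, 2 and 0 of the 34 in these contrasts, and 10, 11 and 5 had an unadjusted p under 0.05 (DESeq2). Clec4e, the receptor Mincle, had 12346 ± 1433 normalized counts for Con, 19195 ± 3031 for Van and 8616 ± 2224 for VanLip (SD, n = 3). It was lower in VanLip than in Van (log2 fold change -1.16, DESeq2 adjusted p = 6.64e-09), called in each fit that left out 1 library. It was higher in Van than in Con (log2 fold change 0.64, DESeq2 adjusted p = 0.0123), a call lost without Con replicate 1, Con replicate 2 or Van replicate 1 (0.0724 to 0.0900). Relative to Con, VanLip was lower (log2 fold change -0.52, DESeq2 adjusted p = 0.0489), a call that held in 2 of the 9 fits that left out 1 library, those without Van replicate 1 and without VanLip replicate 1, and was at 0.0530 to 0.261 in the others.

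Cd83, a marker of activated antigen-presenting cells, was lower in VanLip than in Con (-1.01, DESeq2 adjusted p = 0.0339) and than in Van (-0.99, DESeq2 adjusted p = 0.0297). Both Cd83 calls were lost without any 1 Con library, VanLip replicate 1 or VanLip replicate 3 (0.0512 to 0.190). Cd40, a costimulatory receptor, was lower in Van than in Con (log2 fold change -0.58, DESeq2 adjusted p = 0.00883), lost without Con replicate 1 or Van replicate 3 (0.0964 to 0.106). It was higher in VanLip than in Van (log2 fold change 0.48, DESeq2 adjusted p = 0.0258), lost without VanLip replicate 3, Van replicate 2 or Van replicate 3 (0.0852 to 0.155).

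The cytokine gene Il1a was lower than in Con in Van (-0.66, DESeq2 adjusted p = 0.0186) and in VanLip (-0.78, DESeq2 adjusted p = 0.00142). The first was lost without Con replicate 2, Con replicate 3, Van replicate 2 or Van replicate 3 (0.113 to 0.143), and the second was called in all 9 such fits but lost in 3 of the 9 other alternatives (adjusted p of up to 0.115). Of the chemokines, Ccl2 was lower in VanLip than in Con (-0.73, DESeq2 adjusted p = 0.0232), lost without Con replicate 2, Con replicate 3 or VanLip replicate 2 (0.0999 to 0.231). Ccl4 was lower in VanLip than in Van (-0.66, DESeq2 adjusted p = 0.0324), lost without VanLip replicate 1, Van replicate 1 or Van replicate 3 (0.0549 to 0.270). Cxcl3 was lower in VanLip than in Van (log2 fold change -2.51, DESeq2 adjusted p = 0.00151), at a level of at most 0.43 FPKM in every library, and was lower than in Con (log2 fold change -2.32, DESeq2 adjusted p = 0.00661), a call lost without Con replicate 2 or VanLip replicate 2 (0.0533 to 0.104). The Cxcl3 values shrank to -0.37 against Van and -0.35 against Con in limma on log2(FPKM + 1), at adjusted p of 0.146 and 0.197.

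**Figure D5:**
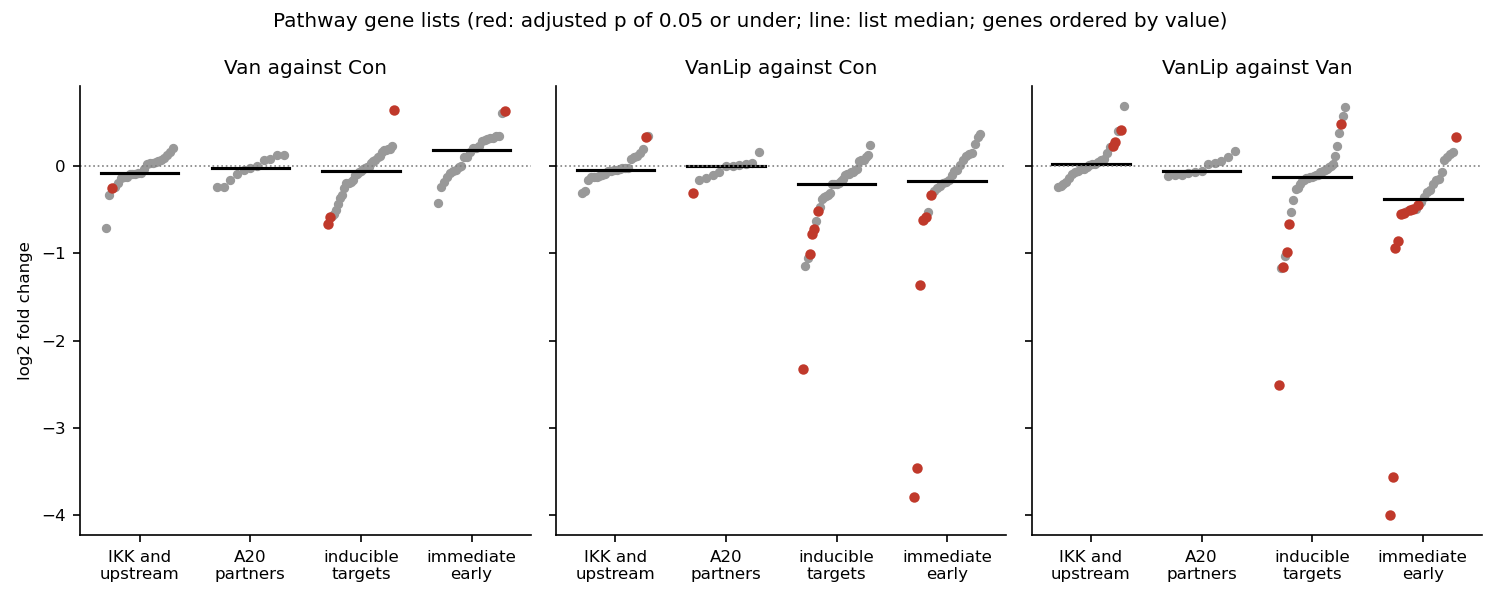
DESeq2 log2 fold changes (y axis) of single genes in 4 lists for the 3 contrasts, ordered by value within a list, with called genes in red (adjusted p of 0.05 or under) and a line at the list median. The lowest points, Hspa1b at -3.79 in VanLip against Con and -3.99 in VanLip against Van, belong to the handling-sensitive list.

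The list of 24 genes sensitive to cell handling held large differences in the VanLip contrasts. It too was drawn up with earlier results of these data known, so its called shares are descriptive. Hspa1b and Hspa1a, inducible heat shock proteins encoded by near-identical copies whose reads may be split between them, were lower in VanLip than in Con (log2 fold changes -3.79 and -3.46, DESeq2 adjusted p = 1.20e-13 and 4.08e-13). Atf3, a stress-induced transcription factor, was lower in VanLip than in Con (log2 fold change -0.61, DESeq2 adjusted p = 4.95e-08) and than in Van (log2 fold change -0.55, DESeq2 adjusted p = 1.01e-06). Hsp90aa1 was higher in Van than in Con (log2 fold change 0.63, DESeq2 adjusted p = 2.78e-12), a call lost in 1 of 9 alternatives, limma with pseudocount 0.1 (adjusted p = 0.0628), and lower in VanLip than in Van (log2 fold change -0.86, DESeq2 adjusted p = 9.68e-25). Junb was higher in VanLip than in Van (log2 fold change 0.33, DESeq2 adjusted p = 0.0283), lost without any 1 Van library, VanLip replicate 1 or VanLip replicate 2 (0.0537 to 0.163). Egr3, an immediate early transcription factor, was lower in VanLip than in Con (log2 fold change -1.37, DESeq2 adjusted p = 0.000136) and than in Van (log2 fold change -0.94, DESeq2 adjusted p = 0.0168), the second lost without Van replicate 1, Van replicate 2, VanLip replicate 1 or VanLip replicate 2 (0.0679 to 0.186). In limma on log2(FPKM + 1) these Egr3 values were -0.66 and -0.42, at adjusted p of 0.0894 and 0.191. Over the whole list of 24, 1 gene was higher in Van than in Con and 6 were lower in VanLip than in Con, so that 4.17%, 25.0% and 41.7% of the list were called in Van against Con, VanLip against Con and VanLip against Van, against 4.34%, 6.67% and 9.86% of all genes tested.

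By Pearson correlation of log2(normalized count + 1) over the 9 libraries, the genes most like Rel among 12206 that averaged 100 normalized counts or more were Gpr132 (r = 0.957), Tlk1 (0.954), Ddx6 (0.946), Gm9938 (0.943) and Gm13767 (0.940). The 9 points share the grouping and the difference in depth, so these values describe likeness in these libraries. Rel was the reference because its adjusted p in VanLip against Con was the lowest of any member. Lower values in that contrast among genes picked for likeness to Rel therefore largely restate the choice, and they give no separate support. Gpr132, a receptor on myeloid and lymphoid cells, was lower in VanLip than in Con (log2 fold change -0.45, DESeq2 adjusted p = 0.0130), lost without Con replicate 1 or VanLip replicate 2 (0.0792 to 0.153). Gm13767, annotated as an unprocessed pseudogene, was lower (log2 fold change -0.65, DESeq2 adjusted p = 0.000310), called in all 9 fits that left out 1 library but lost in 2 of the 9 other alternatives, both of them limma fits (adjusted p of up to 0.0890). Ddx6, an RNA helicase, was lower (log2 fold change -0.20, DESeq2 adjusted p = 0.0347), a call held only without Van replicate 1 or VanLip replicate 3 (0.0572 to 0.234 without each other library). Tlk1 (log2 fold change -0.13, DESeq2 adjusted p = 0.302) and Gm9938 (-0.32, DESeq2 adjusted p = 0.237) were not called in that contrast.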

How the data were processed

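Per the labels, the authors aligned reads to GRCm38 with HISAT2 2.2.1 and SAMtools 1.9 and estimated transcripts with StringTie 2.1.3. The authors deposited FPKM values per gene and expected counts per gene, which were converted from the StringTie output and are not normalized. The annotation release is not given in the sources used here. Groups and replicate numbers came from the sample titles. Expected counts were rounded and tested in R 4.3.3 with DESeq2 1.42.0 (Wald test, two-sided, median-of-ratios size factors, 9 libraries in 1 fit, group as the only term), with p-values adjusted over all genes tested by the Benjamini-Hochberg method and a threshold of 0.05. Normalized counts are counts divided by the size factors. Alternatives were edgeR 4.0.16 (quasi-likelihood), TMM library sizes, a filter (10 counts or more in 3 libraries or more), fits of 2 groups at a time, the replicate number as a block, division of counts by the size of 1 read, limma 3.58.1 on quantile-normalized log2(FPKM + 1) or log2(FPKM + 0.1), the former also restricted to genes whose mean FPKM reached 1, and omission of each library. No 2 libraries held identical values. The fits were also run on simulated data, and the outcome is not given here. No member had fewer than 2691 counts in a library. The members and lists were chosen with earlier results of these data known. Besides the members, the rule for naming took up to 4 called genes per list, contrast and direction, by adjusted p, whose higher group averaged 50 normalized counts or more, and the 5 genes most like the member with the lowest adjusted p. Bcl3, Nfkbid and the cell type markers were named outside this rule, after their values were seen. Coordinates are from GENCODE M21, and promoter sequences from RefSeq.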

Additional observations from a re-analysis of the deposited data

How the results depend on the processing

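The members' calls were few and changed with the processing. For VanLip against Con, 1 member was called by DESeq2 and 0 by edgeR and by limma with each of 3 settings. For VanLip against Van, 1 was called by DESeq2 and 0 by edgeR, with TMM library sizes, with only the 2 groups compared, with the replicate block and with the 3 limma settings. Leaving out 1 library gave 0 to 1 calls in Van against Con (1 without Van replicate 1, 1 without Van replicate 3) and 0 to 2 in each VanLip contrast. Over all genes, the calls of 803, 1104 and 1777 became 204, 300 and 855 with edgeR, 92, 237 and 688 with limma (pseudocount 1), 17, 168 and 516 with limma (pseudocount 0.1), and 90, 339 and 829 with limma on genes whose mean FPKM reached 1. Without 1 library they ran from 425 to 913, from 606 to 1276 and from 1142 to 1666. Of the calls in VanLip against Con, 44.7% were higher, and 56.8% with TMM library sizes, 54.4% with the replicate block, and 50.3% with edgeR. In VanLip against Van 46.5% were higher, and 55.6% with TMM and 52.4% with the block. Of 35 calls of members and other named genes, 9 held in every alternative and without each library, those of Clec4e, Hsp90aa1 and Tab1 in VanLip against Van and of Atf3, Hspa1a and Hspa1b in both VanLip contrasts.

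Same-numbered libraries deviated together with correlations of -0.065 to 0.123 over 13503 genes, so the numbers were not taken as pairs. The replicate block gave 932, 1146 and 1644 calls, and among the members it changed only the Nfkbia call in VanLip against Van (adjusted p = 0.0604, DESeq2).

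The values that changed sign were not called in the fit of all 9 libraries. In VanLip against Con, Nfkb1 was 0.00646 with edgeR, 0.0224 with TMM, 0.000654 with only the 2 groups and 0.0702, 0.0707 and 0.0702 with the limma settings, Nfkb2 was 0.00867 with TMM, Nfkbiz was 0.0157 with TMM and 0.00476, 0.00479 and 0.00476 with the limma settings, and Ikbkg was 0.00344 with TMM. With the limma settings Rela in VanLip against Van was -0.00992, -0.0101 and -0.00992, and Nfkbib in Van against Con was -0.0906, -0.0927 and -0.0906. Without 1 library, log2 fold changes in VanLip against Con ran from -0.0786 to 0.0885 for Nfkb1, -0.159 to 0.0663 for Nfkb2, -0.171 to 0.0588 for Nfkbib, -0.0676 to 0.0571 for Nfkbiz, -0.000879 to 0.149 for Relb, -0.0559 to 0.0128 for Ikbkg and -0.247 to 0.00929 for Cd40. In VanLip against Van they ran from -0.433 to 0.0388 for Rel, -0.0346 to 0.0761 for Rela and -0.307 to 0.0181 for Il1a. In Van against Con they ran from -0.0881 to 0.141 for Nfkbia, -0.101 to 0.129 for Nfkbib, -0.0241 to 0.103 for Rela, -0.153 to 0.264 for Tnfaip3, -0.127 to 0.0315 for Atf3, -0.42 to 0.0325 for Ccl2, -0.0167 to 0.414 for Ccl4, -0.384 to 0.179 for Cd83, -0.121 to 0.428 for Cxcl3, -0.217 to 0.517 for Hspa1a and -0.112 to 0.58 for Hspa1b.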
